A study of Homo sapiens with 6 samples.

Results

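Mitochondrial ribosomal protein genes were examined in human cells labelled as NTera-2 (NT2), a line from an embryonal carcinoma, given mimics of piR-36249 or a scramble control. They were taken as the protein-coding genes whose symbol begins with MRPL or MRPS followed by a digit, plus DAP3, which gave 79 of 58051 genes in the deposited table, 49 of the large subunit and 30 of the small subunit by symbol. RNA was sequenced in 3 libraries of mimic cells and 3 of scramble cells. A knockdown of piR-36249 is named in the genotype field and in the design text, whereas titles and treatment name mimics that overexpress it; the titles were followed, and the piRNA itself is not analysed here. Since no label ties the libraries to separate cultures, the p-values speak for the spread among these 6 libraries, and that spread may be technical.

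Mitochondria carry their own ribosome, which translates the few mRNAs of the mitochondrial genome into subunits of the oxidative phosphorylation complexes. Its rRNAs are encoded in the mitochondrial DNA, while all of its proteins are encoded in the nucleus, made in the cytosol and imported. Many of these proteins have counterparts in the bacterial ribosome, and the others occur only in mitochondrial ribosomes.

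The reads recovered from the table summed to 49.0 to 64.1 M per library, and the 12912 genes that averaged 0.5 FPKM or more (a level scaled to gene length and library depth, as the authors computed it) were tested. Of 9 marker genes of embryonal carcinoma 1, LIN28B, was above 1 FPKM in every library, and 5 (NANOG, SOX2, SALL4, TDGF1 and L1TD1) were listed at 0 in all 6. Of 8 endothelial markers 5 were above 1 FPKM, and the 8 summed to 264 to 271 FPKM in mimic libraries and 206 to 213 FPKM in scramble libraries. The defining markers of the labelled cell type were thus mostly absent, and the 5 expressed endothelial markers (CDH5, PECAM1, TIE1, TEK and ERG) were all called higher with the mimic, as was LIN28B (log2 fold change 0.33, limma adjusted p = 0.0138); their part in the results below was not tested.

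Among the mitochondrial ribosomal protein genes more fell than rose. Of the 78 that were tested, 25 fell with the mimic (32.1%, against 16.8% of all tested genes) and 2 rose (2.56%, against 18.7%), while 51 did not pass the test. In either direction 27 were called, a share close to the 35.5% of all tested genes that were called. A gene is called here where its adjusted p in limma, over all 12912 genes, was below 0.05. The median log2 fold change, mimic minus scramble, was -0.12 over these genes and 0.0025 over all tested genes, and 58 of the 78 had a negative sign. Most changes were small, since the 25 that fell had a median ratio of mimic to scramble FPKM of 0.843, and only 1 of them changed by 0.5 or more on the log2 scale. In bulk RNA, fewer cells of a type and less RNA per cell cannot be told apart. The count rests in part on single libraries: without scramble replicate 3 it was 16 genes lower, and without both that library and mimic replicate 2, an alternative chosen after seeing the data, it was 11. Over all tested genes the number called, counted in either direction, dropped less in proportion, from 4584 with all libraries to 3998 and 3972.

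**Figure D1:**
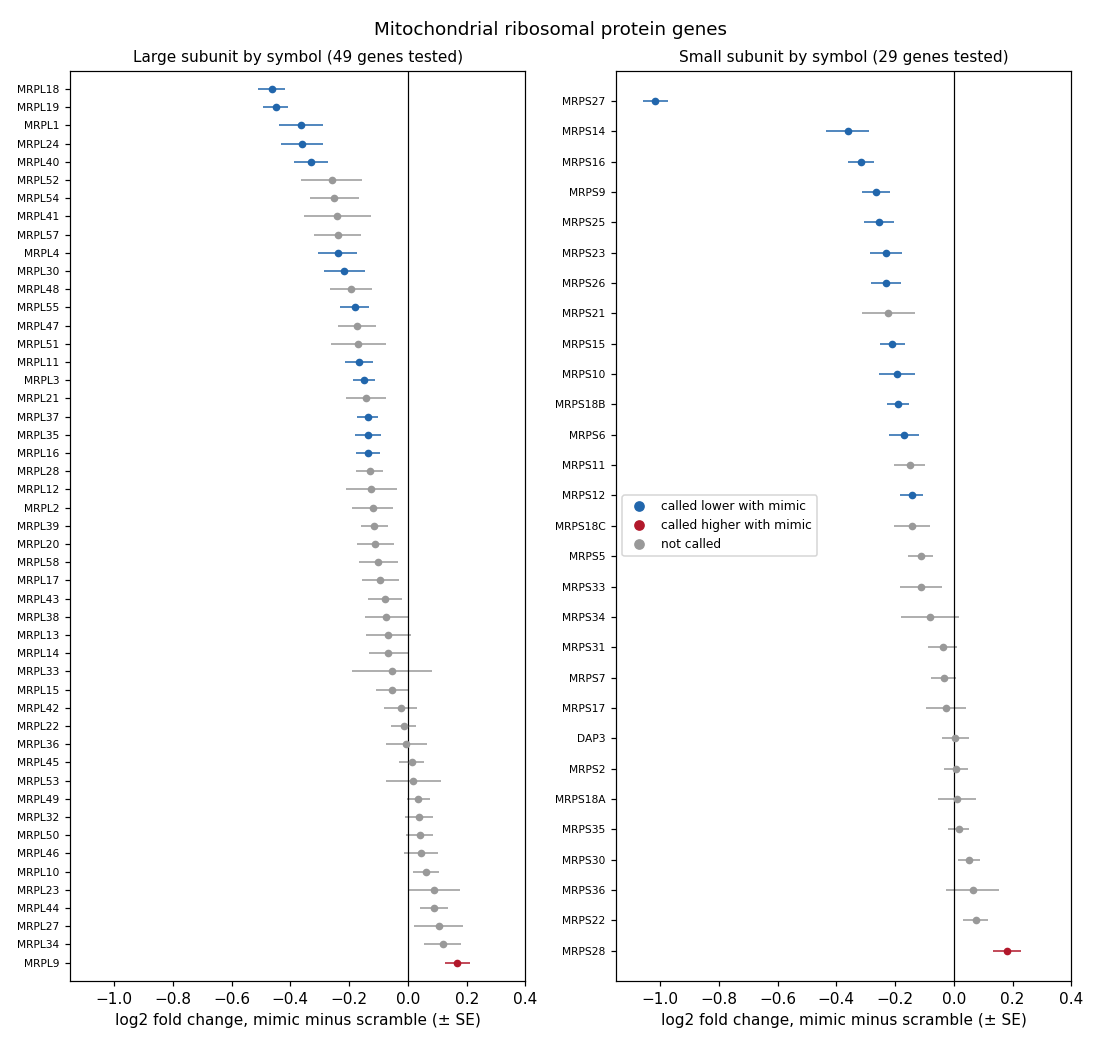
Log2 fold change (mimic minus scramble, horizontal axis) of the 78 tested mitochondrial ribosomal protein genes, with large subunit genes on the left and small subunit genes on the right; points are limma estimates, bars are 1 SE, blue marks genes called lower, red genes called higher and grey genes not called. MRPS27 stands at -1.02, and every other gene lies between -0.46 and 0.18.

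MRPS27 had the largest fall of the group. It encodes a small subunit protein of the pentatricopeptide repeat kind that occurs only in mitochondrial ribosomes, and the gene (ENSG00000113048) lies on the minus strand at chr5:72219409-72320646 on GRCh38. Its level was 7.74, 7.81 and 8.29 FPKM in the mimic libraries, against 16.9, 17.2 and 17.2 FPKM in the scramble libraries. The groups were far apart and each was tight, with means of 7.95 ± 0.299 FPKM in mimic cells and 17.1 ± 0.132 FPKM in scramble cells (SD, n = 3 each), a ratio of 0.465. The log2 fold change was -1.02 (SE 0.041, limma adjusted p = 1.04e-05), which ranked 33 among all falls in the table. Between 2590 and 2956 reads lay behind each mimic value and between 5906 and 6918 behind each scramble value. The adjusted p stayed between 7.35e-05 and 2.08e-04 with each library left out in turn. MRPS27 was also the only one of the 79 genes in the authors' deposited table, which lists it with a log2 fold change of -1.11 (SE 0.058) and an adjusted p of 5.11e-78.

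The promoters of the 3 genes with the largest falls are shown because MRPS27 stands so far from the rest; they span 250 bases before to 50 after the start, 5′ to 3′ on the gene's strand, from RefSeq on GRCh38.p14. Capitals mark the match to AAGATGGC, the core of the YY1 motif, which was the only match in these 3 promoters to any of the 4 motifs searched. MRPS27 is read from chr5:72320191-72320490 on the minus strand, MRPL18 from chr6:159789562-159789861 and MRPL19 from chr2:75646533-75646832, both on the plus strand.
MRPS27: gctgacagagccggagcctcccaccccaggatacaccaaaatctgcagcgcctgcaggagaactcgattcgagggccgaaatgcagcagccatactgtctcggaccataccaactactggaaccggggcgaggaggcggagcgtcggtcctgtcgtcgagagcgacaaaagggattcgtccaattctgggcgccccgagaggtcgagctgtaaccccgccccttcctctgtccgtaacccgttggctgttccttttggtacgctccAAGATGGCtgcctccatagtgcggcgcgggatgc
MRPL18: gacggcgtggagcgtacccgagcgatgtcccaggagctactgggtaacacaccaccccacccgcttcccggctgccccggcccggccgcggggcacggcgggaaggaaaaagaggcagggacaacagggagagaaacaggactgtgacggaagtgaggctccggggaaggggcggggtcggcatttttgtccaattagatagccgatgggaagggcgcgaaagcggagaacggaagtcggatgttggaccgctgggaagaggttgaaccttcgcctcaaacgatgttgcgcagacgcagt
MRPL19: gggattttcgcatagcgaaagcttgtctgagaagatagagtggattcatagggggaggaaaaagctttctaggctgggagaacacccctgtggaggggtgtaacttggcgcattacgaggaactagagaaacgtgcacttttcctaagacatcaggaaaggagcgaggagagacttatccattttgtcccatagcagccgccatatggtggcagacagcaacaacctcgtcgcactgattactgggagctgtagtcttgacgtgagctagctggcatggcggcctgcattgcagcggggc
The search covered 70 of the 79 genes, on both strands, and 15843 protein-coding promoters of the same length. The YY1 letters AAGATGGC were in 20 of the 70 promoters (28.6%), against 3.91% of all promoters, and the ETS letters CCGGAAG were in 29 (41.4%), against 14.2%. The NRF1 motif was in 8 (11.4%), against 8.58%, and the MYC letters CACGTG in 6 (8.57%), against 8.88%. Among the 24 genes called lower that had a promoter in the table, 4 held the YY1 letters (16.7%) and 9 the ETS letters (37.5%); among the 44 not called, 15 (34.1%) and 20 (45.5%) did. Both shares were smaller among the genes that fell than among those not called, and no test of this was made. CCGGAAG ends in the letters that begin AAGATGGC, but the matches overlapped in 0 of the 70 promoters. AAGATGGC holds an ATG, so that a match in the last 50 bases can cover a start codon. The match of MRPS27 lies in these last 50 bases, and whether its ATG is the start codon was not tested.

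In the large subunit 13 of 49 genes fell (26.5%, against 16.8% of all tested genes) and 1 rose (2.04%, against 18.7%). MRPL18, whose bacterial counterpart binds the 5S rRNA, had 39.6, 37.8 and 39.6 FPKM in the mimic libraries, against 51.3, 54.7 and 56.6 FPKM in the scramble libraries. MRPL19, a counterpart of a bacterial protein at the interface between the subunits, had 5.97, 6.24 and 6.04 FPKM in the mimic libraries, against 8.70, 8.86 and 8.48 FPKM in the scramble libraries. The groups did not overlap for either gene, and the log2 fold changes were -0.46 for MRPL18 (SE 0.046, limma adjusted p = 2.87e-04) and -0.45 for MRPL19 (SE 0.042, adjusted p = 2.28e-04). MRPL1, a counterpart of the protein of the bacterial L1 stalk, had 6.72, 6.15 and 5.78 FPKM in the mimic libraries, against 7.68, 8.0 and 9.22 FPKM in the scramble libraries. MRPL24, whose bacterial counterpart is an early assembly protein, had 36.3, 33.3 and 32.1 FPKM in the mimic libraries, against 40.4, 43.0 and 48.2 FPKM in the scramble libraries. Both were separated between the groups but spread more within them than MRPL18, and both log2 fold changes were -0.36 (adjusted p = 0.00801 for MRPL1 and 0.00684 for MRPL24). MRPL40, which occurs only in mitochondrial ribosomes, had 14.1, 13.6 and 12.99 FPKM in the mimic libraries, against 16.3, 17.02 and 18.7 FPKM in the scramble libraries, a log2 fold change of -0.33 (adjusted p = 0.0038). These 5 genes passed the test in every one of the 19 alternatives that were run.

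The 8 further large subunit genes that fell were MRPL4, MRPL30, MRPL55, MRPL11, MRPL3, MRPL37, MRPL35 and MRPL16, with log2 fold changes between -0.24 and -0.14. All 8 lost the call when 1 or more of the libraries was left out. MRPL4 gave adjusted p = 0.0636 without mimic replicate 2, 0.0544 without scramble replicate 1 and 0.0677 without scramble replicate 3, while MRPL3 gave 0.0611 without mimic replicate 3. The number of large subunit genes lower was 8 without mimic replicate 2, 6 without mimic replicate 3 and 7 without scramble replicate 3. Calls were lost over all tested genes as well, but by a smaller proportion. In these settings 3894, 3387 and 3998 genes were called in either direction, against 4584 with all libraries. Conversely MRPL54, MRPL57 and MRPL41, all mitochondria-specific, did not pass with all libraries (adjusted p = 0.0515, 0.0512 and 0.142) but did without mimic replicate 1 (0.0060, 0.0316 and 0.0330). MRPL57 also passed without scramble replicate 2 (0.0317). Genes with bacterial counterparts did likewise. MRPL47 (limma adjusted p = 0.0754 with all libraries) passed in 2 cases with 1 library left out, at 0.0344 at the lowest. MRPS21 of the small subunit (0.0929 with all libraries) passed in 1 such case, at 0.0371.

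In the small subunit 12 of 29 tested genes fell (41.4%, against 16.8% of all tested genes) and 1 rose (3.45%, against 18.7%). After MRPS27 came MRPS14, whose bacterial counterpart sits in the head of the subunit, with 10.9, 9.61 and 9.23 FPKM in the mimic libraries, against 11.9, 13.6 and 13.6 FPKM in the scramble libraries. MRPS16, mutated in an inherited defect of mitochondrial translation, had 41.3, 40.0 and 41.4 FPKM in the mimic libraries, against 49.0, 50.4 and 54.0 FPKM in the scramble libraries. The groups were separated for both, closely for MRPS14 and by a wide margin for MRPS16, and the log2 fold changes were -0.36 (SE 0.073, limma adjusted p = 0.00712) for MRPS14 and -0.32 (SE 0.045, adjusted p = 0.00147) for MRPS16. MRPS9, whose bacterial counterpart reaches the peptidyl-tRNA site, had 8.87, 9.38 and 8.69 FPKM in the mimic libraries, against 11.4, 11.0 and 10.6 FPKM in the scramble libraries. MRPS25, which occurs only in mitochondrial ribosomes, had 9.03, 8.54 and 8.82 FPKM in the mimic libraries, against 10.3, 10.3 and 11.4 FPKM in the scramble libraries. Both pairs of groups were apart, with log2 fold changes of -0.26 (adjusted p = 0.00388) and -0.25 (adjusted p = 0.00726). The other 7 small subunit genes that fell were MRPS23, MRPS26, MRPS15, MRPS10, MRPS18B, MRPS6 and MRPS12, with log2 fold changes between -0.23 and -0.14. Of these MRPS23, MRPS26, MRPS15 and MRPS18B kept the call with each library left out, while MRPS10, MRPS6 and MRPS12 lost it in 5, 5 and 4 of the 6 cases. MRPS10 gave adjusted p = 0.116 without mimic replicate 1, MRPS6 gave 0.109 without scramble replicate 2 and MRPS12 gave 0.0863 without scramble replicate 1.

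**Figure D2:**
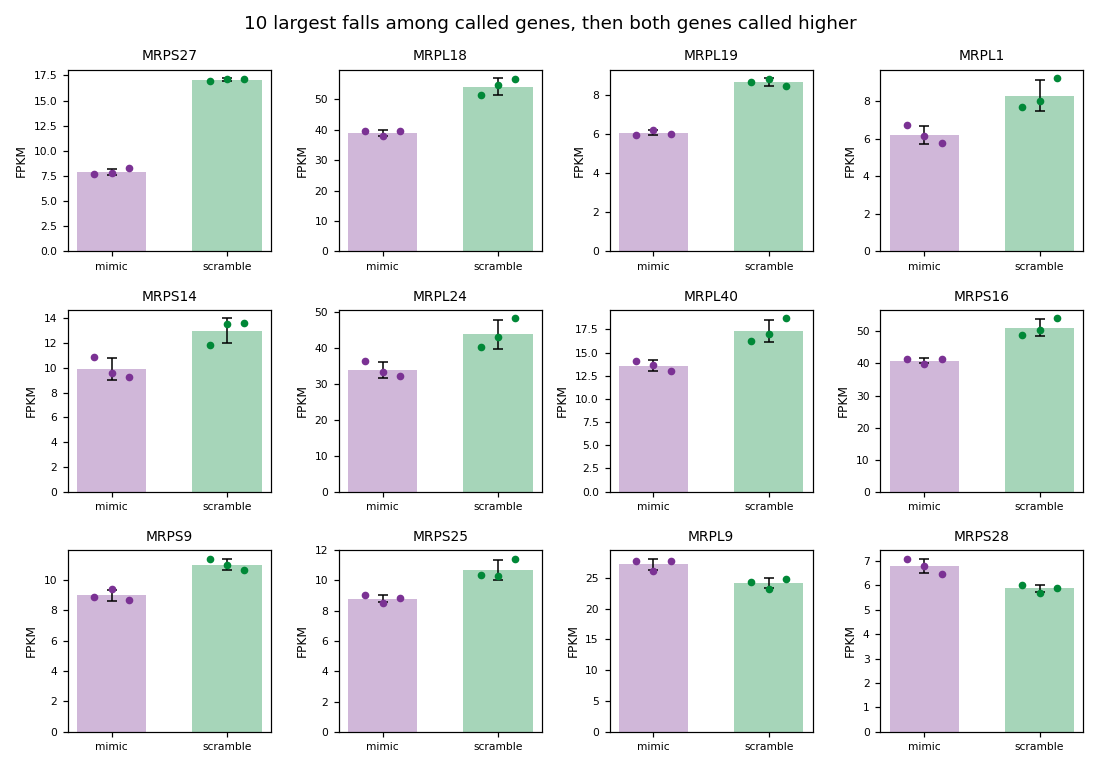
FPKM (vertical axis, from 0) in each library for the 10 genes with the largest called falls and the 2 genes called higher, mimic on the left and scramble on the right of each panel; points are libraries, bars are means and whiskers are SD (n = 3). MRPS27 lies at 7.74 to 8.29 FPKM in mimic libraries and 16.9 to 17.2 FPKM in scramble libraries, and the groups do not overlap in any of the 12 panels.

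MRPL9 and MRPS28 were the 2 genes that rose, both by little. MRPL9, a counterpart of a bacterial large subunit protein, had 27.7, 26.1 and 27.7 FPKM in the mimic libraries, against 24.3, 23.2 and 24.8 FPKM in the scramble libraries. MRPS28, a small subunit protein related to the bacterial S1 protein, had 7.09, 6.81 and 6.48 FPKM in the mimic libraries, against 6.01, 5.70 and 5.91 FPKM in the scramble libraries. The groups did not overlap, and the log2 fold changes were 0.17 for MRPL9 (SE 0.043, limma adjusted p = 0.0192) and 0.18 for MRPS28 (SE 0.048, adjusted p = 0.0226). Each call held in only 2 of the 6 cases with 1 library left out. MRPL9 gave adjusted p = 0.0593, 0.0701, 0.0544 and 0.0660 without mimic replicates 1 and 3 and scramble replicates 1 and 2, and MRPS28 gave 0.0727, 0.0561, 0.0515 and 0.0728 without mimic replicates 1 and 2 and scramble replicates 1 and 2. Both genes share exon sequence with other annotated genes. MRPL9 shares 38.5% of its exon length with 3 genes, of which OAZ3 on the other strand (0.030 FPKM in mimic cells and 0.021 FPKM in scramble cells) covers 18.4%. MRPS28 shares 35.8% with AC036214.3, listed at 0 in all libraries. How the authors counted reads over shared exons is not given in the sources used here, so the levels of both are uncertain.

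DAP3, a GTP-binding small subunit protein also known for a part in cell death, was at almost the same level in both groups. It had 33.5, 32.1 and 32.4 FPKM in the mimic libraries, against 31.1, 32.1 and 34.5 FPKM in the scramble libraries, and the groups overlapped (log2 fold change 0.0057, SE 0.046, limma adjusted p = 0.936). MRPS2 and MRPL36, both with bacterial counterparts, were as close, with means of 53.8 ± 1.60 FPKM in mimic cells and 53.5 ± 1.99 FPKM in scramble cells for MRPS2 and 29.02 ± 1.74 FPKM in mimic cells and 29.2 ± 2.55 FPKM in scramble cells for MRPL36. A p that misses the threshold does not show that these levels are equal. In 33 of the 78 genes every mimic library lay below every scramble library (23.2% of all tested genes did), and in 4, MRPL9, MRPS28, MRPS30 and MRPS22, every mimic library lay above (26% of all tested genes).

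Levels per length spanned a wide range. MRPL15, at the top, averaged 155 ± 7.90 FPKM in mimic cells and 161 ± 9.05 FPKM in scramble cells, and MRPS35 averaged 125 ± 2.29 FPKM in mimic cells and 124 ± 2.39 FPKM in scramble cells. MRPS34 averaged 109 ± 13.7 FPKM in mimic cells and 115 ± 9.98 FPKM in scramble cells, and MRPL41 averaged 75.03 ± 12.2 FPKM in mimic cells and 88.3 ± 7.99 FPKM in scramble cells. In both groups MRPL15 stood above the other 3, the ranges of MRPS35 and MRPS34 overlapped in the scramble libraries, and none of the 4 passed the test between the groups. Below these, 49 genes lay between 10 and 60 FPKM, 21 between 2 and 10, and 4 under 2. MRPL38 had 0.624, 0.480 and 0.569 FPKM in the mimic libraries, against 0.561, 0.656 and 0.699 FPKM in the scramble libraries, and MRPL53 had 1.31, 0.922 and 1.41 FPKM in mimic libraries, against 1.25, 1.099 and 1.18 FPKM in scramble libraries. MRPS18C averaged 1.07 ± 0.084 FPKM in mimic cells and 1.29 ± 0.030 FPKM in scramble cells, and MRPL46 averaged 1.97 ± 0.070 FPKM in mimic cells and 1.88 ± 0.109 FPKM in scramble cells. MRPS24 was the 1 gene under the filter, at 0.0522, 0.0566 and 0.0718 FPKM in mimic libraries and 0.122, 0.0290 and 0.0501 FPKM in scramble libraries, from 4 to 20 reads each. Across the 78 genes, which share the 6 libraries, Spearman's rho of the fold change was -0.11 with the mean level and 0.0093 with the exon length.

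Several of the low genes share exons with another gene. MRPS24 shares 23.2% of its exon length with the readthrough gene URGCP-MRPS24, which is listed at 0. MRPL53 shares 45.2% with CCDC142, and MRPS18C shares 40.2% with ABRAXAS1 on the other strand. MRPL38 shares 41.1% with 2 genes, of which AC087289.3 covers 37.5%. In all, 42 of the 79 genes share exon sequence with another annotated gene and 37 do not. The median level of the tested genes was 13.4 FPKM with shared exons and 21.0 FPKM without. Of the 37 without shared exons 13 fell (35.1%, against 16.8% of all tested genes) and 0 rose (0 higher also at an unadjusted p below 0.05 and by voom). Of the 41 tested with them 12 fell (29.3%) and 2 rose, so that the falls were found on both sides. MRPS27 shares 2.92%, with PTCD2 on the other strand. Of the other 9 largest falls, MRPS25 shares 22.2% (with NR2C2), MRPS16 14.9% (14.1% of it with DNAJC9-AS1), MRPS14 13.5% (with CACYBP), MRPS9 8.88% (with UTAT33) and MRPL19 2.87% (with GCFC2), all on the other strand apart from 0.716% of MRPS16, while MRPL18, MRPL1, MRPL24 and MRPL40 share none. NR2C2, CACYBP and GCFC2 were not called. Whether counting used strand is not stated, so reads of such pairs cannot be told apart. MRPL12, a counterpart of the bacterial stalk protein and the gene with the largest share (68.2%, with AC139530.2, listed at 0), was not called (log2 fold change -0.12). Processed pseudogenes of this family can also take reads, and their part was not tested.

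The small subunit had the larger share of falls, 41.4% against 26.5% in the large subunit and 16.8% of all tested genes. Its median log2 fold change was -0.14, against -0.11 in the large subunit. The difference between the medians was -0.030. The mean log2(FPKM + 1) of the large subunit genes minus that of the small subunit genes was 0.39, 0.35 and 0.37 in the mimic libraries, against 0.33, 0.31 and 0.38 in the scramble libraries. The groups overlapped, because scramble replicate 3 lay within the mimic range, and so the subunits were not seen to change unequally beyond the spread between libraries. Without MRPS27 the same values were 0.36, 0.33 and 0.34 in the mimic libraries, against 0.34, 0.32 and 0.38 in the scramble libraries. In structures of the mammalian ribosome MRPS18A and MRPS30 belong to the large subunit and MRPS36 to neither, since it is now known as a subunit of the oxoglutarate dehydrogenase complex. None of the 3 passed the test: MRPS18A averaged 16.4 ± 1.08 FPKM in mimic cells and 16.3 ± 1.17 FPKM in scramble cells, MRPS30 averaged 10.5 ± 0.107 FPKM in mimic cells and 10.1 ± 0.121 FPKM in scramble cells, and MRPS36 averaged 4.89 ± 0.686 FPKM in mimic cells and 4.62 ± 0.385 FPKM in scramble cells. Placed by structure, 13 of 51 large subunit genes (25.5%) and 12 of 26 small subunit genes (46.2%) fell, against 16.8% of all tested genes.

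The falls were also counted by protein family. Of 47 tested genes with bacterial counterparts 19 fell (40.4%) and 2 rose, with a median log2 fold change of -0.14. Of 31 mitochondria-specific genes 6 fell (19.4%) and 0 rose, with a median of -0.08. At this limma threshold the share of the mitochondria-specific genes was close to the 16.8% of all tested genes that fell. In the large subunit the counts were 11 of 30 lower with bacterial counterparts (36.7%) and 2 of 19 lower among the mitochondria-specific (10.5%, below the share of all tested genes). In the small subunit they were 8 of 17 (47.1%) and 4 of 12 (33.3%). With voom on recovered reads 10 of the 31 mitochondria-specific genes were lower, 6 of them in the large subunit. By voom 20 genes with bacterial counterparts and 2330 of all 12871 genes were lower. At an unadjusted p below 0.05 in limma 11 mitochondria-specific genes, 25 with bacterial counterparts and 2849 of all 12912 genes were lower. Of the mitochondria-specific genes 0 were higher by voom or at that unadjusted p. No test of the difference between the families was made.

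Single libraries shaped these values. Mimic replicate 2 was the lowest of its group in 46 of the 78 genes (35.9% of all tested genes), and scramble replicate 3 was the highest of its group in 61 (36.1% of all tested genes). The median deviation of log2(FPKM + 1) from each gene's mean was 0.0044, -0.10 and -0.066 in mimic replicates 1 to 3, against 0.036, 0.016 and 0.12 in scramble replicates 1 to 3. All 3 mimic medians lay below all 3 scramble medians, that of mimic replicate 1 by little. Over all tested genes the same medians stayed between -0.0074 and 0.0082. The summed level of the 78 genes was 2085, 1921 and 1993 FPKM in the mimic libraries, against 2130, 2103 and 2291 FPKM in the scramble libraries, and the groups did not overlap. The 10 genes with the largest spread within groups, led by MRPL33, MRPL41 and MRPL52, were all uncalled, and their median exon length was 1534.5 bases against 2539 over all 78. Without mimic replicate 2 and scramble replicate 3 the median log2 fold change was -0.028 in the large subunit and -0.094 in the small subunit.

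**Figure D3:**
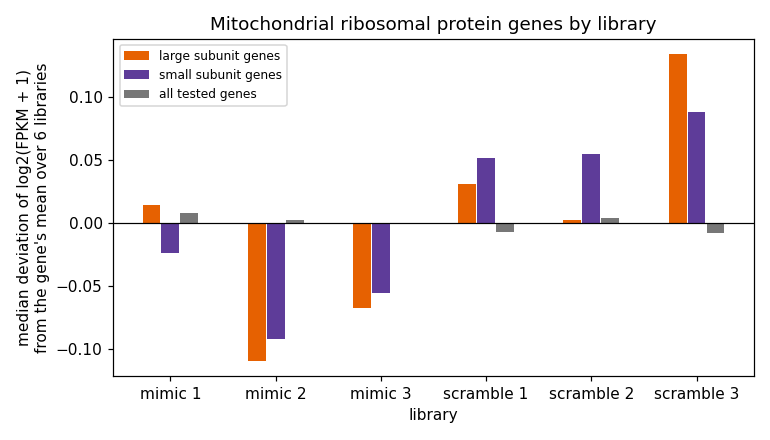
Median deviation of log2(FPKM + 1) from each gene's mean over the 6 libraries (vertical axis) for each library, with large subunit genes in orange, small subunit genes in purple and all tested genes in grey. Mimic replicate 2 is lowest and scramble replicate 3 highest in both subunits, while all tested genes lie near 0.

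Many mitochondrial ribosomal protein genes start close to the start of a gene on the other strand. Of the 79 genes, 29 have a protein-coding gene that starts on the other strand within 1000 bp, whether or not the genes overlap. Distances are between GENCODE gene starts, which for MRPS27 differs from the RefSeq start of the promoter shown above. PTCD2, whose mouse counterpart acts in mitochondrial RNA processing and which starts 279 bp from MRPS27, averaged 0.879 ± 0.028 FPKM in mimic cells and 0.955 ± 0.074 FPKM in scramble cells, and it did not pass the test (log2 fold change -0.06, limma adjusted p = 0.516). TCP1, a subunit of the cytosolic chaperonin that starts 63 bp from MRPL18, averaged 68.6 ± 0.294 FPKM in mimic cells and 74.7 ± 0.989 FPKM in scramble cells, and it fell by less than MRPL18 (-0.12, adjusted p = 0.0225). Of these 29 genes 6 fell, against 32.1% of the 78 tested genes of the group and 16.8% of all tested genes. Among these 6, 2 had a partner that also fell, 3 a partner that was not called and 1 a partner that was not tested. Over all 24 tested partners 6 fell and 2 rose, where 16.8% and 18.7% of all tested genes did. MRPL46 and MRPS11 start 34 bp from each other, and neither was called.

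The other genes of mitochondrial translation were described from lists of their own. Of 4 mitochondrial ribosomal proteins with other symbols (AURKAIP1, CHCHD1, PTCD3 and GADD45GIP1) 0 were called by limma, 0 had an unadjusted p below 0.05 and 0 were called by voom on recovered reads. On the log2 scale CHCHD1 was at 0.16 and the others between -0.08 and -0.03. Of 26 genes for the assembly of the ribosome and the modification of its rRNA 6 fell and 2 rose. The shares were 23.1% lower and 7.69% higher, against 16.8% and 18.7% of all tested genes. METTL17, an assembly factor, averaged 8.77 ± 0.125 FPKM in mimic cells and 10.8 ± 0.431 FPKM in scramble cells (log2 fold change -0.27, limma adjusted p = 0.0027). MRM2, an rRNA methyltransferase, averaged 14.1 ± 0.893 FPKM in mimic cells and 17.9 ± 1.20 FPKM in scramble cells (-0.32, adjusted p = 0.00591). DHX30, an RNA helicase, and GTPBP6, a GTPase of late assembly, fell by 0.18 and 0.23. The 2 that rose were NGRN (0.18, adjusted p = 0.0264) and TRMT61B (0.26, adjusted p = 0.0471), and neither was called without mimic replicate 2, scramble replicate 2 or scramble replicate 3. Of 15 translation factors 2 fell (13.3%, against 16.8% of all tested genes). They were TUFM, the elongation factor Tu of mitochondria (-0.16, adjusted p = 0.0304), and TACO1, an activator of cytochrome oxidase translation (-0.18, adjusted p = 0.0368). MTRF1, a release factor, averaged 1.91 ± 0.058 FPKM in mimic cells and 2.26 ± 0.115 FPKM in scramble cells (-0.16, adjusted p = 0.0534), and GFM2, which acts in ribosome recycling, averaged 4.76 ± 0.446 FPKM in mimic cells and 5.59 ± 0.346 FPKM in scramble cells (-0.20, adjusted p = 0.0613); neither passed. The number lower was 4 with quantile normalization, 3 with voom on recovered reads, and 0 without the filter on low values. Neither TUFM nor TACO1 held with every library left out: without mimic replicate 3 TUFM gave 0.0659 and TACO1 0.0806, and without scramble replicate 1 they gave 0.0760 and 0.104.

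Of 13 tested genes for mitochondrial transcription and its regulators 3 fell (23.1%, against 16.8% of all tested genes) and 1 rose (7.69%, against 18.7%). MYC, a transcription factor that promotes ribosome production, averaged 139 ± 3.48 FPKM in mimic cells and 177 ± 0.402 FPKM in scramble cells (log2 fold change -0.35, limma adjusted p = 3.36e-04). PPRC1, a coactivator, averaged 20.6 ± 1.02 FPKM in mimic cells and 25.3 ± 0.871 FPKM in scramble cells (-0.29, adjusted p = 0.00316), and NRF1, a factor known to bind promoters of nuclear genes for mitochondria, averaged 4.88 ± 0.514 FPKM in mimic cells and 6.19 ± 0.125 FPKM in scramble cells (-0.29, adjusted p = 0.0115). YY1 averaged 19.1 ± 0.686 FPKM in mimic cells and 16.5 ± 0.191 FPKM in scramble cells (0.20, adjusted p = 0.00746). These 4 calls held with each library left out. GABPA, the ETS factor of the list, was at 5.05 ± 0.403 FPKM in mimic cells and 4.77 ± 0.270 FPKM in scramble cells and was not called.

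Of 15 RNAs of the mitochondrial genome 6 fell (40%, against 16.8% of all tested genes) and 1 rose (6.67%, against 18.7%). MT-RNR2, the large subunit rRNA, had 2538, 2500 and 2270 FPKM in the mimic libraries, against 1695, 1583 and 1376 FPKM in the scramble libraries, with no overlap (log2 fold change 0.65, limma adjusted p = 0.0010). MT-RNR1, the small subunit rRNA, had 1412, 1345 and 992 FPKM in the mimic libraries, against 1195, 1101 and 808 FPKM in the scramble libraries, and the overlapping groups were not called (0.28, adjusted p = 0.254). MT-ATP8, which encodes a subunit of the ATP synthase, had 395, 405 and 361 FPKM in the mimic libraries, against 492, 832 and 784 FPKM in the scramble libraries, the largest change of the list (-0.82, adjusted p = 0.00985). The groups did not overlap, although scramble replicate 1 lay well below the other scramble libraries. MT-ATP6, whose gene overlaps MT-ATP8, averaged 3137 ± 188 FPKM in mimic cells and 3932 ± 223 FPKM in scramble cells (-0.33, adjusted p = 0.00897). MT-ND6, the light-strand mRNA of complex I, averaged 969 ± 36.8 FPKM in mimic cells and 1174 ± 67.8 FPKM in scramble cells (-0.28, adjusted p = 0.00835). The other 3 that fell were MT-CYB, MT-CO3 and MT-ND5, at -0.28, -0.27 and -0.21. The rRNA of the large subunit rose while 13 of the 49 genes for its proteins fell (26.5%, against 16.8% of all tested genes). How rRNA was treated before sequencing is not given in the sources used here. Without the filter on low values 0 of the 15 were called lower, and on the TPM scale, with quantile normalization, with the replicate block and with voom 2 were called higher.

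Of 84 tested cytosolic ribosomal protein genes 26 fell in limma. That was 31.0%, close to the 32.1% of the mitochondrial ribosomal protein genes, against 16.8% of all tested genes. The number that rose was 0, also at an unadjusted p below 0.05 and by voom on recovered reads, while 18.7% of all tested genes rose. The median log2 fold change was -0.17, with RPL39L, RPS3, RPL15 and RPL7A at -0.44, -0.34, -0.27 and -0.27. The number lower was 11 without mimic replicate 2, 10 without mimic replicate 3, 14 without scramble replicate 3 and 8 without the filter on low values. It was 39 with voom, 34 with quantile normalization, which also called 1 higher, and 32 at a mean of 5 FPKM or more. Of 77 tested nuclear genes for subunits of oxidative phosphorylation 7 fell (9.09%, against 16.8% of all tested genes) and 0 rose in limma. By voom 13 were lower and 1 higher, and 1 was higher at an unadjusted p below 0.05. The median was -0.07, with COX7C, ATP5F1B, SDHA and COX8A at -1.61, -0.80, -0.40 and -0.23. For these genes the number lower was 11 without scramble replicate 1 and also 11 at a mean of 5 FPKM or more. The number higher was 2 without scramble replicate 3, and 5 without both that library and mimic replicate 2. The mitochondrial ribosomal protein genes lay between these lists by their median, and no test between the lists was made.

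**Figure D4:**
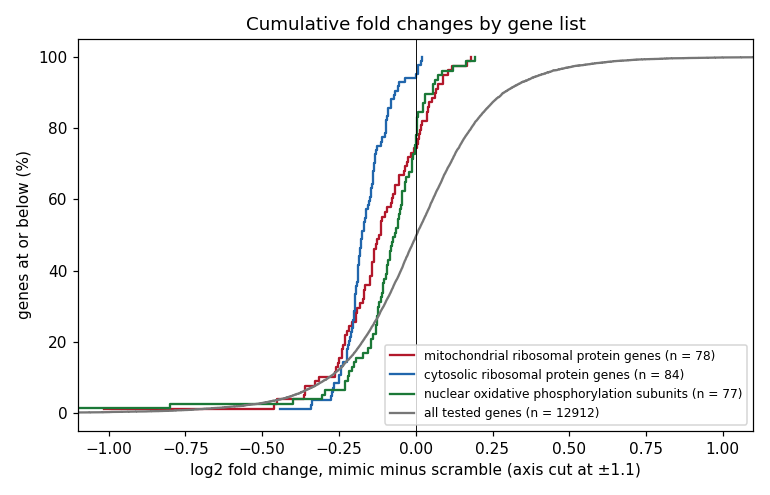
Percent of genes (vertical axis) at or below each log2 fold change (mimic minus scramble, horizontal axis, cut at both ends) for 78 mitochondrial ribosomal protein genes, 84 cytosolic ribosomal protein genes, 77 nuclear oxidative phosphorylation subunit genes and all 12912 tested genes. The red curve of the mitochondrial ribosomal protein genes, with its median at -0.12, lies left of the grey curve of all genes over the middle of the range. It reaches no further right than 0.18.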

How the data were processed

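Total RNA from 6 libraries was sequenced, 3 of mimic and 3 of scramble cells, grouped by their titles. The submitters' processing notes name, on GRCh38, HISAT2 2.1.0 (an aligner), featureCounts 2.0.1 (a read counter), Trimmomatic 0.39 and DESeq2 1.26.0, with no word on annotation release, strand or how FPKM was computed. Values in FPKM were deposited by the authors for 58051 genes, in a table with 0 further sample columns. Their comparison table, as deposited, has 401 genes and holds, per the file headers, a mean of normalized counts (a signal), a log2 fold change with its standard error (a score), a test statistic (a score) and p-values; its smallest absolute log2 fold change is 1.00, and only its values for MRPS27 are used.

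Gene names, positions and exon lengths came from GENCODE release 29, which matched 57447 identifiers. Genes averaging 0.5 FPKM or more were tested on log2(FPKM + 1) with limma 3.58.1 in R 4.3.3, with a variance trend, group as the only term and Benjamini-Hochberg adjustment over all 12912 tested genes at 0.05; fold changes on this scale understate those of low genes. FPKM times exon length and a depth fitted for each library gave whole reads, within 0.02, for 92.2% to 96.0% of low values. The depth was chosen to make this share large, so the share is no independent check. Voom of limma on these reads was an alternative, among others of pseudocount, filter, scaling, variance model, replicate block and libraries left out. The model was tested on simulated data.

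The genes and lists were chosen with earlier results of these data known. The text names DAP3, the 10 largest falls and all rises among called genes, the 4 highest and 4 lowest levels, the 3 smallest changes and the 4 genes of each list with the smallest p. The others were named after their values were seen.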

Additional observations from a re-analysis of the deposited data

How the results depend on the processing

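Over 19 alternatives, 18 of them planned and 1 chosen after seeing the data, the 78 genes gave 1472 comparisons with their first result, of which 1361 kept the call, 87 lost it, 24 gained it and 0 changed direction. Of the 25 genes lower, 11 were called in every alternative and 14 with every single library left out. The number of genes lower was 16 to 24 with 1 library left out and 11 without mimic replicate 2 and scramble replicate 3; in the large subunit it was 6 to 13 and 5, with 7 where no filter on low values was set, and in the small subunit it was 6 without both libraries. The number of genes higher was 1 with voom on recovered reads, 0 to 2 with 1 library left out and 1 without both; it was 0 to 1 in each subunit with 1 library left out, and in the small subunit 0 with voom and 0 without both. The median log2 fold change without both libraries was -0.028 in the large and -0.094 in the small subunit, and with 1 library left out it was -0.14 to -0.072 in the large and -0.15 to -0.10 in the small subunit. Over all tested genes the number called was 3387 to 3998 with 1 library left out and 3972 without both, against 4584 with all libraries. With no filter, 30416 genes were tested. With the replicate number as a block (replicate block), 2 large subunit genes were higher and 4609 of all genes were called, against 4584; same-numbered libraries deviated together with r of -0.062, 0.24 and 0.054, so the numbers were not taken to pair the samples, and not every library correlated best with its own number. With 49.0 to 64.1 M recovered reads per library, MRPS24 had 4 to 20 reads, too few for a statement on it.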
